A study of Mus musculus with 8 samples.

Results

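The SLC25 family of mitochondrial carriers was followed in mouse hippocampus after the kinase ATM had been blocked with KU55933. Members were all genes whose symbol begins with Slc25a and a digit, apart from symbols marked as pseudogenes, which gave 46 of the 19558 genes in the table. The 1 pseudogene symbol left out, Slc25a5-ps, never exceeded 8 counts in a library. Of the 46 members, 41 passed the filter on low counts and were tested. The other 5, Slc25a2, Slc25a31, Slc25a41, Slc25a43 and Slc25a48, reached at most 11 counts in any library.

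All mice were wild-type C57BL/6 KP animals at postnatal day 40, and all were anesthetized and dosed through both nostrils. The KU55933 group received this small-molecule ATM inhibitor at 7.5 mg/kg, and the vehicle group received 4% DMSO in saline. Each group held 4 libraries of polyadenylated hippocampal RNA, which the submitters count as 4 mice, and the sources used here do not give the time between dosing and collection. The series compares the groups directly, in work on how loss of ATM affects glutamatergic transmission.

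Library totals were 40586998 to 46630341 estimated counts in vehicle and 34190440 to 37499003 in KU55933. Marker calls are those of the edgeR test defined below, without the offset for GC content. That test called 6.92% of all 15481 tested genes higher and 14.6% lower. Marker calls with the offset are not given here. All 9 hippocampal neuron markers were at 1 CPM (counts scaled to library size) or more in every library. Of these 9, 2 were called lower in KU55933. Of 6 pan-neuron markers 1 was called higher and 2 lower, and of 8 astrocyte markers 2 were called lower. The 8 oligodendrocyte markers, none called, summed to 7964 CPM in vehicle 1 against 3514 to 5707 in the other 7 libraries. Microglia markers (1 of 8 lower) and endothelial markers (1 of 6 higher, 1 lower) had overlapping sums in the groups. The 10 choroid plexus markers, none of them at 0 in every library, summed to 1206 and 1272 CPM in KU55933 1 and 2, against 57.5 to 122 in vehicle and 82.2 and 66.1 in KU55933 3 and 4. Of 7 thalamic and subcortical neuron markers 3 were called higher, with sums of 79.4 to 106 CPM in vehicle and 98.3 to 144 in KU55933, and the part of any of these cell types in the carrier results was not tested. For a GC slope, each library's log2 CPM was taken as its deviation from the gene's mean over all 8 libraries. The slope of this deviation on transcript GC content lay between 0.14 and 0.27 in vehicle and between -0.35 and -0.12 in KU55933. Its unit is log2 per 10 percentage points. Because of the centering, only differences between libraries can be read from these slopes, not their signs. In such bulk tissue, fewer cells of a type and less RNA per cell cannot be told apart.

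SLC25 carriers are nuclear-encoded membrane proteins that move nucleotides, phosphate, organic acids, amino acids, cofactors and metal ions between the cytosol and the mitochondrial matrix, mostly by exchange. They are made in the cytosol and inserted into the inner membrane through the TOM pore, the small TIM chaperones and the TIM22 complex. In neurons they supply the matrix with ADP and phosphate for ATP synthesis, carry reducing equivalents in the malate-aspartate shuttle, and carry glutamate into the matrix.

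In KU55933, 2 of the 41 tested carriers rose, Slc25a32 and Slc25a14, and 6 fell, Slc25a10, Slc25a47, Slc25a39, Slc25a22, Slc25a29 and Slc25a1. These are 4.88% of the tested members higher, against 6.92% of all 15481 tested genes, and 14.6% lower, against 14.6% of all genes, so the family changed about as often as the transcriptome at large. A call means an adjusted p under 0.05 in edgeR's quasi-likelihood test (two-sided, Benjamini-Hochberg over all genes tested). The median log2 change over the members was -0.07, within a range of -0.95 to 0.39, against a median of 0.01 over all genes. The CPM values of the groups did not overlap in 12 members, 3 higher and 9 lower, which is 29.3% of those tested, against 26.7% of all genes.

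Over the whole transcriptome the fold change depended on GC content, and the carriers lay on the same slope. When an offset removed the trend of every library on GC content and length, edgeR called 0 of the 41 members, against 0.517% of all genes called higher and 2.28% called lower. In that fit 9 of the 41 members had an unadjusted p under 0.05, as did 2892 of all 15481 tested genes. The smallest adjusted p of a member was 0.0547, for Slc25a26, and the median log2 change was -0.10, against -0.05 over all genes. DESeq2, run without the offset, called 3 members higher and 9 lower, and the share of all genes it called is not given here. Because the calls changed with the offset, its value is given beside the log2 change of each named gene below.

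Counts per kilobase of transcript, rescaled to the same sum in every library, allow genes to be compared with each other. On this per-length scale the members differed widely in abundance in vehicle. Each level sums all annotated transcripts of a gene, coding or not. The adenine nucleotide translocase gene Slc25a4 stood highest at 614 ± 25.8 (mean ± SD, n = 4, as throughout), followed by the phosphate carrier gene Slc25a3 at 484 ± 12.3. Slc25a5 at 364 ± 13.7 and Slc25a23 at 362 ± 8.95 did not differ beyond their spread, and Slc25a22 followed at 316 ± 11. The order then dropped to Slc25a12 at 132 ± 9.14 and Slc25a11 at 121 ± 3.73. At the low end of the tested members were Slc25a13 at 1.18 ± 0.457 and Slc25a21 at 0.265 ± 0.0563. Members took 0.307% ± 0.00866 of all counts in vehicle and 0.286% ± 0.0067 in KU55933.

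**Figure D1:**
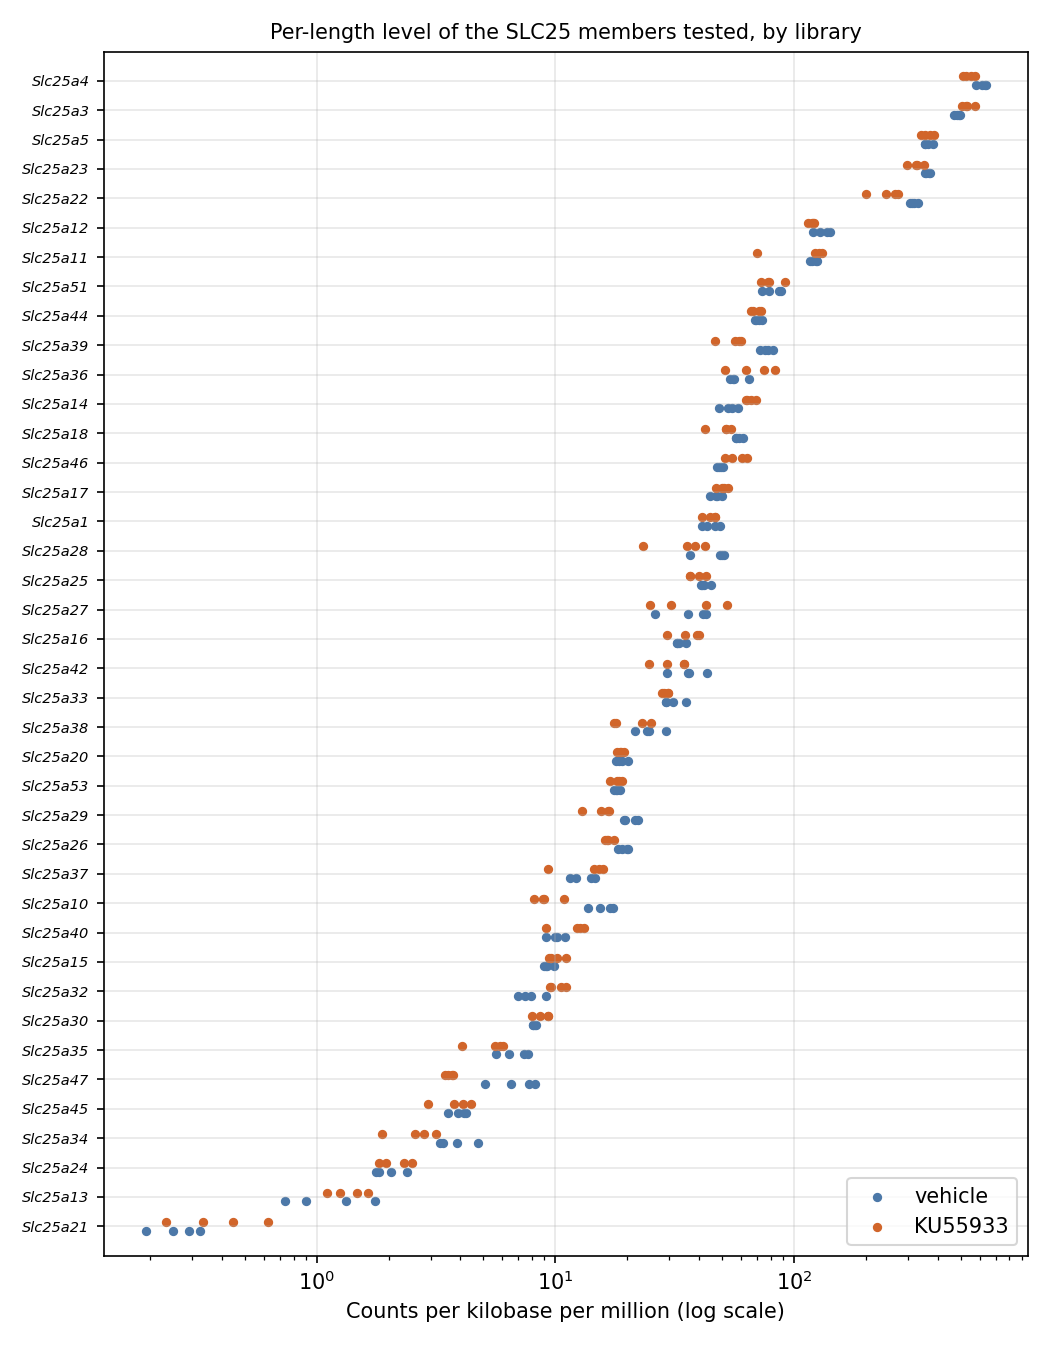
Per-length level of 40 of the 41 tested members in rescaled counts per kilobase (log scale), 1 point per library, vehicle in blue and KU55933 in orange. Slc25a4, Slc25a3, Slc25a5, Slc25a23 and Slc25a22 led the family, and the points of the 2 groups lay close together compared with the distances between genes.

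The carriers that feed ATP synthesis did not pass the test. Slc25a4 and Slc25a5 encode the translocases that exchange matrix ATP for cytosolic ADP, and Slc25a3 encodes the carrier that brings in phosphate. Slc25a4 stood at 487, 511, 498 and 464 CPM in vehicle 1 to 4 and at 469, 381, 412 and 442 in KU55933 1 to 4. The groups overlapped only through KU55933 1 and vehicle 4, and the log2 change was -0.20 ± 0.08 (SE, adjusted p = 0.084 by edgeR), or -0.23 ± 0.07 with the offset (adjusted p = 0.121). Without KU55933 1 it was -0.25 and passed (adjusted p = 0.0424), and DESeq2 passed it with all libraries (adjusted p = 0.0461). Slc25a5 had 187 ± 8.95 and 184 ± 16.8 CPM, and its log2 change of -0.03 had an approximate 95% interval of -0.18 to 0.13. With the offset the change was -0.13 ± 0.07 (adjusted p = 0.328 by edgeR). The per-length ratio of Slc25a4 to Slc25a5 was 1.67, 1.65, 1.80 and 1.64 in vehicle and 1.54, 1.51, 1.49 and 1.43 in KU55933, lower in every KU55933 library, and this ratio was not tested. Reads could be shared between these paralogs and with processed copies of Slc25a5, and how they were split was set by the deposited estimates.

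Slc25a3 was nearly level as a gene, at 284, 307, 321 and 329 CPM in vehicle and 297, 295, 293 and 299 in KU55933. All 4 KU55933 libraries lay inside the vehicle range. The log2 change was -0.07 ± 0.07 (adjusted p = 0.49 by edgeR), or -0.21 ± 0.06 with the offset (adjusted p = 0.0933). Its isoforms moved apart, as described further on, so that the per-length level was 468 to 495 in vehicle and 506 to 573 in KU55933, higher without overlap while the CPM was not. Slc25a31, the related translocase gene known from testis, was among the 5 untested members.

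Of the calcium-regulated carriers, which exchange ATP-Mg for phosphate and so set the matrix pool of adenine nucleotides, 0 of 3 tested members passed. Slc25a23 was at 462, 495, 454 and 479 CPM in vehicle and 404, 407, 459 and 425 in KU55933. Only KU55933 3 reached the vehicle range. Its log2 change was -0.16 ± 0.07 (adjusted p = 0.123 by edgeR) and turned to 0.09 ± 0.06 with the offset. The other 2 tested genes of the group, Slc25a24 and Slc25a25, had levels of 2.88 ± 0.414 and 56.5 ± 2.73 CPM in vehicle and 3.02 ± 0.395 and 50.7 ± 5.04 in KU55933.

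Among the 4 aspartate and glutamate carriers, 1 fell. Slc25a22 encodes GC1, the glutamate carrier whose loss in people causes an early epileptic encephalopathy. It stood at 314, 339, 306 and 309 CPM in vehicle and at 242, 188, 259 and 265 in KU55933. Every KU55933 library lay below every vehicle library, with KU55933 2 lowest. The fall was 1.33-fold, a log2 change of -0.41 ± 0.10 (SE, adjusted p = 0.0199 by edgeR). The gene has 57.4% GC, and with the offset the log2 change was -0.07 ± 0.08 (adjusted p = 0.657). The call ended without vehicle 2 (-0.38, adjusted p = 0.0622) and without KU55933 1 and 2 together (-0.27, adjusted p = 0.0593).

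Slc25a18, which encodes GC2, the other glutamate carrier, known from astrocytes, had 45.4, 47.4, 48.2 and 45.5 CPM in vehicle and 42.2, 31.3, 40.7 and 43.3 in KU55933. The groups did not overlap, but KU55933 2 alone was far below, and the log2 change of -0.24 ± 0.10 did not pass (adjusted p = 0.0983). With the offset the change was -0.19 ± 0.09 (adjusted p = 0.28 by edgeR). Slc25a12 encodes aralar, the aspartate-glutamate carrier of the neuronal malate-aspartate shuttle. At 154 ± 7.01 and 153 ± 14.1 CPM it had a log2 change of -0.01 with an approximate 95% interval of -0.17 to 0.14, and of -0.11 ± 0.07 with the offset. Slc25a13, which encodes citrin, its liver counterpart, had only 1.49 ± 0.539 and 1.69 ± 0.266 CPM. The log2 change of Slc25a13 was 0.17 ± 0.26 (adjusted p = 0.665 by edgeR), or -0.03 ± 0.25 with the offset. On the per-length scale Slc25a12 stood 68.4 to 176 times above Slc25a13 in vehicle and 73.7 to 110 times in KU55933. This ratio includes ENSMUST00000184169, the most abundant Slc25a12 transcript, which is annotated as a nonsense-mediated decay form. It had 77.3 ± 4.52 CPM in vehicle and 76 ± 8.85 in KU55933. The longer coding form ENSMUST00000151937 had 68.2 ± 5.08 and 71.9 ± 10.5 CPM.

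Of the 4 citrate, dicarboxylate and oxoacid carriers, 2 fell. Slc25a10 encodes the dicarboxylate carrier, which exchanges malate or succinate for phosphate. Its level was 10.9, 12.3, 13.4 and 13.1 CPM in vehicle and 6.58, 6.12, 6.71 and 7.59 in KU55933. The highest KU55933 library was well below the lowest vehicle library. The fall was 1.84-fold, a log2 change of -0.88 ± 0.11 (adjusted p = 0.000678 by edgeR), which had the smallest p of the family and passed without any 1 of the 8 libraries and without KU55933 1 and 2 together (-0.79, adjusted p = 0.0111). With 60.3% GC, it had a log2 change of -0.21 ± 0.08 with the offset (adjusted p = 0.211).

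Slc25a1 encodes the citrate carrier, which exports citrate to the cytosol for lipid synthesis. It had 25.3, 25.7, 29.2 and 28.6 CPM in vehicle and 22.2, 21.4, 23.9 and 23.3 in KU55933. The groups did not overlap, although KU55933 3 came close to vehicle 1, and the log2 change was -0.26 ± 0.08 (adjusted p = 0.0433). The call ended when any library other than vehicle 1 was left out (adjusted p of 0.0528 to 0.133) and with no filter on low counts (0.0528), and the offset turned the change to 0.17 ± 0.07 (adjusted p = 0.235). Per length its level was 45.1 ± 3.66 in vehicle and 44.8 ± 2.71 in KU55933, since its transcripts shifted in make-up. Slc25a11, which encodes the oxoglutarate-malate carrier of the malate-aspartate shuttle, had 81.7 to 87.9 CPM in vehicle and 94.2, 81.7, 82.7 and 47.7 in KU55933. KU55933 4 stood apart there, and the log2 change of -0.14 ± 0.17 became 0.03 without it (adjusted p = 0.793). With the offset and all libraries the change was -0.02 ± 0.20.

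In the group of amino acid, ornithine, carnitine and S-adenosylmethionine carriers 1 of 7 tested members fell. Slc25a29, which encodes a carrier of basic amino acids, was at 17.2, 15.4, 17.4 and 15.6 CPM in vehicle and 13, 9.67, 13.3 and 13.2 in KU55933. All KU55933 libraries were lower, KU55933 2 most. The log2 change was -0.41 ± 0.12 (adjusted p = 0.0288 by edgeR) and turned to 0.24 ± 0.10 with the offset (adjusted p = 0.248), the gene having 60.3% GC. The call ended without vehicle 2 (adjusted p = 0.052) or vehicle 3 (0.0888) and without KU55933 1 and 2 (0.104). Slc25a26, the S-adenosylmethionine carrier gene, which was picked for its offset value, had 14.7, 16, 14.9 and 15.7 CPM in vehicle and 13.1, 11.9, 12.3 and 14.4 in KU55933. All KU55933 libraries were below all vehicle libraries. Its log2 change was -0.25 ± 0.09 (adjusted p = 0.073) and, at 49.9% GC, -0.34 ± 0.08 with the offset (adjusted p = 0.0547), short of the threshold both ways.

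Among the 8 cofactor and nucleotide carriers 1 rose. Slc25a32 encodes a carrier of folate and FAD, cofactors of mitochondrial one-carbon metabolism and of flavoenzymes. It stood at 21.5, 16.5, 17.3 and 19.6 CPM in vehicle and 26.5, 25, 23 and 23.6 in KU55933. Every KU55933 library was above every vehicle library, vehicle 1 being nearest. The rise was 1.31-fold, a log2 change of 0.39 ± 0.10 (adjusted p = 0.0211 by edgeR), and 0.10 ± 0.08 with the offset (adjusted p = 0.525), at 41.5% GC. It missed the threshold without vehicle 2 or 3 or KU55933 1 or 2 (adjusted p of 0.0502 to 0.0732) and without both of these KU55933 libraries (0.14). Slc25a51, which encodes the carrier that imports NAD+, was at 128 ± 7.01 CPM in vehicle and 132 ± 11.1 in KU55933. The log2 change of Slc25a51 was 0.04, with an approximate 95% interval of -0.12 to 0.19. With the offset it was -0.14 ± 0.06 (adjusted p = 0.232 by edgeR).

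Of the 4 iron, manganese and glutathione carriers 1 fell. Slc25a39, needed for glutathione import into mitochondria, had 50.5, 51.1, 49.1 and 48.1 CPM in vehicle and 36.6, 28.3, 37.9 and 38.7 in KU55933. The vehicle libraries lay close together and all KU55933 libraries lay below them. The fall was 1.4-fold, a log2 change of -0.49 ± 0.10 (adjusted p = 0.00649 by edgeR), and passed without any 1 of the 8 libraries and without KU55933 1 and 2 (-0.37, adjusted p = 0.0175). At 59.6% GC the change turned to 0.11 ± 0.08 with the offset (adjusted p = 0.503). Its paralog Slc25a40, of 39.1% GC, did not pass, at 12.1 ± 0.961 and 13.5 ± 2.18 CPM. The mitoferrin genes Slc25a28 and Slc25a37, which encode iron importers, did not pass either. The per-length ratio of Slc25a28 to Slc25a37 was 3.01 to 4.32 in vehicle and 2.23 to 2.93 in KU55933, and was not tested. It includes non-coding forms. The most abundant Slc25a28 transcript, ENSMUST00000235953, is annotated as a retained-intron form, at 21.2 ± 5.08 CPM in vehicle and 15.9 ± 6.07 in KU55933. The protein-coding ENSMUST00000046038 had 8.65 ± 1.29 and 3.55 ± 0.948 CPM.

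Of the 3 members that resemble uncoupling proteins 1 rose. Slc25a14, also called UCP5, stood at 38.7, 37.1, 34.6 and 32.3 CPM in vehicle and 45.3, 43.1, 41.4 and 42.7 in KU55933. All KU55933 libraries lay above all vehicle libraries. The rise was 1.21-fold, a log2 change of 0.27 ± 0.08 (adjusted p = 0.03 by edgeR), or 0.12 ± 0.07 with the offset (adjusted p = 0.4), at 47.3% GC. It missed the threshold without vehicle 2, 3 or 4 or KU55933 1 or 2 (adjusted p of 0.0595 to 0.0998), and had an adjusted p of 0.145 without both of these KU55933 libraries. Slc25a27, known as UCP4 and found in neurons, had 29.5, 40.8, 46 and 45.3 CPM in vehicle and 29.1, 53.2, 33.9 and 46.7 in KU55933. Its libraries were spread widely in both groups, and its log2 change was 0.01 ± 0.21, or -0.10 ± 0.21 with the offset.

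Of the 5 tested outer membrane and less characterised members 1 fell. Slc25a47, known from liver, was scarce, with 106, 147, 153 and 121 counts in vehicle and 57, 53, 64 and 59 in KU55933. These are 2.33, 3.64, 3.72 and 3.00 CPM against 1.67, 1.49, 1.70 and 1.66 CPM, with no overlap. The log2 change was -0.95 ± 0.18 (adjusted p = 0.0051 by edgeR), and -0.50 ± 0.16 with the offset (adjusted p = 0.14), at 58% GC. It passed without any 1 of the 8 libraries, but had an adjusted p of 0.0597 without KU55933 1 and 2, at a log2 change of -0.91. Slc25a46, which encodes an outer membrane protein of mitochondrial dynamics, was at 91.8, 87.6, 88.0 and 88.1 CPM in vehicle and 118, 102, 98.0 and 93.2 in KU55933. The KU55933 values were all higher and more spread, and the log2 change of 0.21 ± 0.08 did not pass (adjusted p = 0.0815 by edgeR, 0.0458 by DESeq2). It passed without KU55933 4 (adjusted p = 0.0386), and with the offset, at 40.8% GC, it was -0.07.

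The 22 tested members outside the naming rule, which include Slc25a24, Slc25a25, Slc25a26, Slc25a28, Slc25a37 and Slc25a40 described above, did not pass. They had log2 changes from -0.57 to 0.27 and a median of -0.05. Of these 22, which hold no called member by the naming rule, 3 had an unadjusted p under 0.05 in the edgeR test. With called genes included, 15 of all 41 tested members did, and 5846 of all 15481 tested genes.

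**Figure D2:**
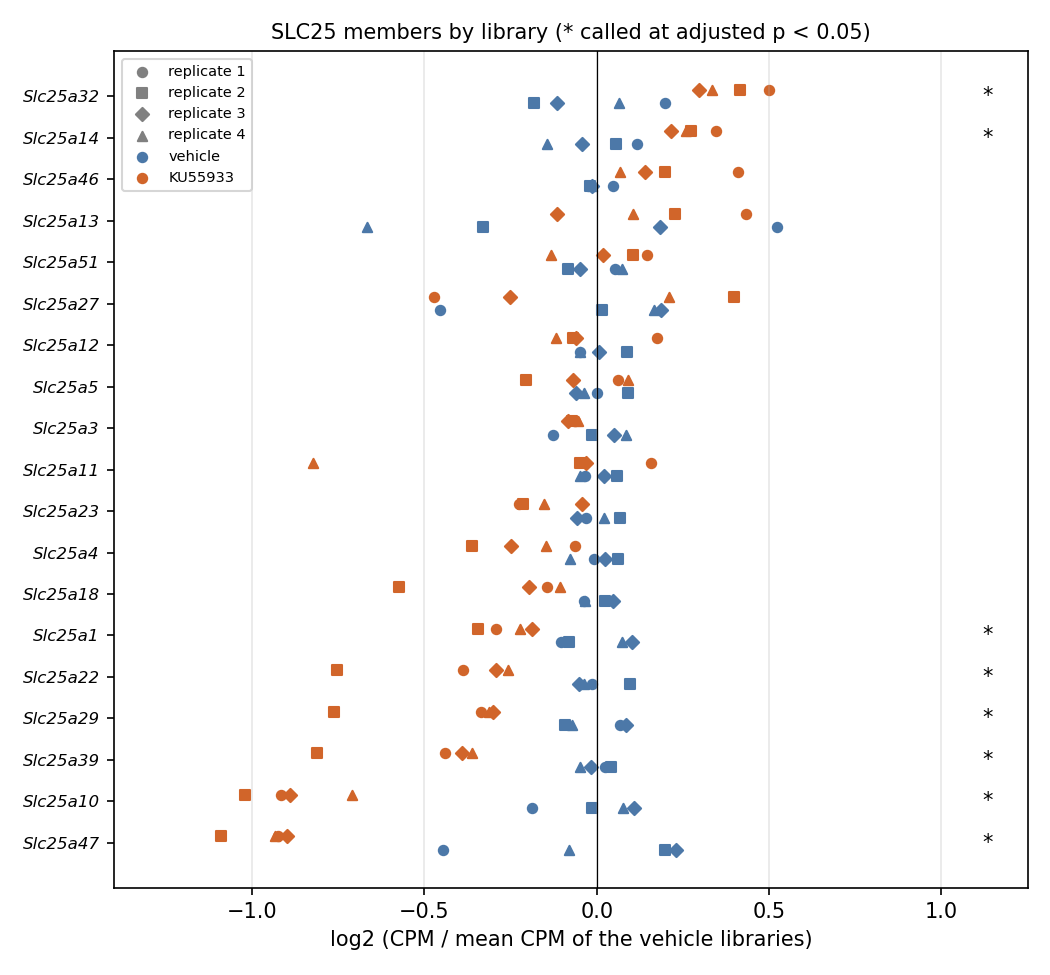
Values of 19 SLC25 members in each library, as the log2 ratio of CPM to the mean of the 4 vehicle libraries, with marker shape giving the replicate number and an asterisk marking genes called at adjusted p under 0.05 without the offset. Slc25a10 and Slc25a47 lay farthest below 0 in KU55933 and Slc25a32 farthest above it.

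The direction of a carrier's change followed its GC content. Of 13 tested members with 55% GC or more, all 13 had a negative log2 change, with a median of -0.41, and these 13 held all 6 falls. Over the 3813 genes of that GC range the median was -0.43 and 51.2% were called lower. The 9 members of 50 to under 55% GC were also all negative, with a median of -0.12, against -0.06 over 4157 genes. Of the 19 members under 50% GC, 3 were negative, the median was 0.08 and both rises were among them, while the median over 7500 genes was 0.17 and 13.5% were called higher. Spearman's rho of log2 change with GC content was -0.91 across the 41 members and -0.71 across 15470 genes, and with the offset it was 0.14 across the members. These are descriptions across genes measured in the same libraries. The vehicle and KU55933 libraries differ in GC slope without overlap, so that a difference in GC content bias and the treatment cannot be told apart for these genes.

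**Figure D3:**
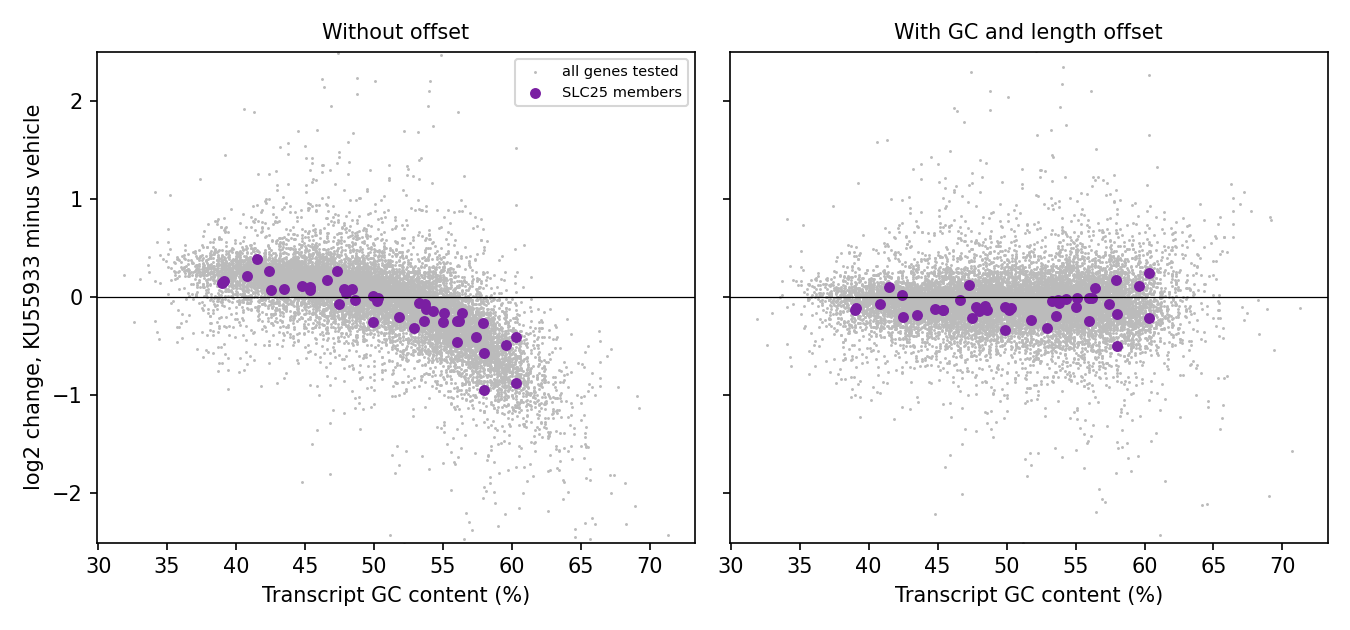
The log2 change in KU55933 (vertical axis) against transcript GC content in percent (horizontal axis) for all tested genes in gray and the SLC25 members in purple, without the offset at left and with it at right. The members ran down the same slope as the other genes at left. With the offset they lay between -0.50 and 0.24, and 34 of the 41 were below 0, against 9811 of all 15481 tested genes. The axis ends at 2.5 on either side, which leaves out 33 genes at left and 25 at right.

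At the level of transcripts, members had 226 annotated transcripts in the table, of which 140 were tested, 2 rose (1.43%) and 8 fell (5.71%). Of all 45343 transcripts tested 1.06% were higher and 5.7% lower, by edgeR's quasi-likelihood test adjusted over all transcripts, so this share too was near the background. With the GC and length offset 1 member transcript was higher and 3 were lower, against 0.862% and 2.06% of all transcripts. These 4 belong to Slc25a3, Slc25a22 and Slc25a4. Counts per isoform are estimates, and the uncertainty of assigning reads among overlapping isoforms is not part of the deposited table or of these tests.

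Slc25a3 carries a pair of mutually exclusive versions of exon 3, form A of the heart and muscle isoform and form B of the isoform found in most tissues, and the choice between them alters the phosphate carrier protein. They are shown because they separate the isoforms counted here. Both are coding exons of the minus strand of chromosome 10, from GENCODE mouse release M21 on build GRCm38. Form A, 125 bases, lies at chr10:91122207-91122331 and form B, 122 bases, at chr10:91121922-91122043. Written 5′ to 3′, capitals mark the bases that differ when the 3′ ends are aligned without gaps, together with the 3 extra bases at the start of form A. The aligned stretch holds 77 identical and 45 different bases.
Slc25a3 exon 3 form A: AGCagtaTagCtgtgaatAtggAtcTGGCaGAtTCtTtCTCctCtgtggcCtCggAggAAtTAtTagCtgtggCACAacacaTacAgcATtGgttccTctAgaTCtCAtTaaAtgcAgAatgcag
Slc25a3 exon 3 form B: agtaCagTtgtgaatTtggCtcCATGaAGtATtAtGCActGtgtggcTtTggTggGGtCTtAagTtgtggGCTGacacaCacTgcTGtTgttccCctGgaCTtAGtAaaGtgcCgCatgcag

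Hippocampal Slc25a3 was mostly of form B in both groups. Transcripts with form A alone made up 4.33%, 8.26%, 3.22% and 1.51% of those with either form alone in vehicle and 6.23%, 6.86%, 6.38% and 11.1% in KU55933, which overlap. Transcripts with form B alone summed to 216, 217, 251 and 258 CPM in vehicle and 207, 172, 182 and 177 in KU55933, lower in every KU55933 library. Within form B, 1 transcript fell and 1 rose. The leading transcript ENSMUST00000076694 fell from 197, 198, 237 and 242 CPM in vehicle to 126, 123, 133 and 137 CPM in KU55933, a log2 change of -0.75 ± 0.09 (adjusted p = 0.00457 by edgeR) and of -0.93 ± 0.11 with the offset (adjusted p = 0.00721). ENSMUST00000164505 rose from 10.4, 7.39, 5.50 and 6.60 CPM to 71.2, 29.6, 35.5 and 25.1 CPM, a log2 change of 2.43 ± 0.36 (adjusted p = 0.00822), and 2.41 ± 0.35 with the offset (adjusted p = 0.0132). All KU55933 libraries were past all vehicle libraries in both transcripts, and KU55933 1 stood highest in the second. Both calls held without any 1 of the 8 libraries. Together they had 226 ± 22.9 CPM in vehicle and 170 ± 19.1 in KU55933, without overlap, so the rise was smaller than the fall in CPM, and movement of counts from one to the other was not tested. The 2 transcripts share their coding sequence. The first exon of ENSMUST00000164505 has 398 bases, and the non-coding parts of the 2 transcripts were not compared.

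As shares of the gene's CPM, ENSMUST00000076694 had 69.5% ± 5.99 in vehicle and 44.2% ± 2.58 in KU55933, and ENSMUST00000164505 had 2.4% ± 0.789 and 13.7% ± 6.91. The 3 transcripts annotated as retained-intron forms of Slc25a3 took 26.4%, 29.1%, 22.3% and 21.4% in vehicle and 29.4%, 43.4%, 38.4% and 36.3% in KU55933. These shares do not overlap, although KU55933 1 is just above vehicle 2, and none of the 3 forms passed alone. The largest, ENSMUST00000167455, had 29.0 ± 14.3 CPM in vehicle and 61.4 ± 8.84 in KU55933 (log2 change 1.08 ± 0.35, adjusted p = 0.122). Over all members together, retained-intron transcripts took 6.29% ± 0.718 of the counts in vehicle and 7.39% ± 1.91 in KU55933. The libraries overlapped, at 5.24% to 6.86% in vehicle and 4.8% to 9.35% in KU55933. Over all genes the shares were 3.6% ± 0.572 and 3.42% ± 0.977.

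In Slc25a22 a pair of isoforms that differ in the coding sequence differed between the groups in opposite directions. ENSMUST00000201710 had 687, 818, 882 and 1051 counts in vehicle and 0 in every KU55933 library. Its vehicle mean of 20.9 ± 4.04 CPM makes it at least 250-fold lower in KU55933 than in vehicle, against a floor of 3 counts per library, or 0.0835 CPM. The edgeR call passed without the offset (adjusted p = 0.000778), with it (adjusted p = 0.0012) and without any 1 of the 8 libraries. ENSMUST00000106006 ran the other way, with 0, 0, 12 and 98 counts in vehicle and 1031, 760, 954 and 784 in KU55933, but its adjusted p of 0.0504 missed the threshold. Summed, the 2 transcripts had 15.7, 20.8, 21.8 and 27.9 CPM in vehicle and 30.4, 21.2, 25.5 and 21.4 in KU55933, which overlap. Movement of estimated counts from one of these isoforms to the other and a change in splicing were not tested against each other.

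ENSMUST00000106006 lacks coding bases that ENSMUST00000201710 holds, among them the whole of exon 7, which is shown since it separates the 2 coding sequences. Exon 7 has 175 bases at chr7:141431739-141431913, on the minus strand of GRCm38 in GENCODE M21. It is written 5′ to 3′ with no base marked.
Slc25a22 exon 7: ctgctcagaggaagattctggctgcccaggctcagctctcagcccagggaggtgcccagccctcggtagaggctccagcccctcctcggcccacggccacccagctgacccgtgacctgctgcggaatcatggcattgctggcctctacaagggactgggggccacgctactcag
Exon 7 has 66.3% GC. The dominant Slc25a22 transcript ENSMUST00000106007, which codes for the same protein sequence as ENSMUST00000201710, held 66.4% ± 1.1 of the gene in vehicle and 68% ± 2.65 in KU55933. At 214 ± 16.7 and 161 ± 25.9 CPM it did not pass alone (log2 change -0.41 ± 0.12, adjusted p = 0.102 by edgeR), although the groups did not overlap.

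**Figure D4:**
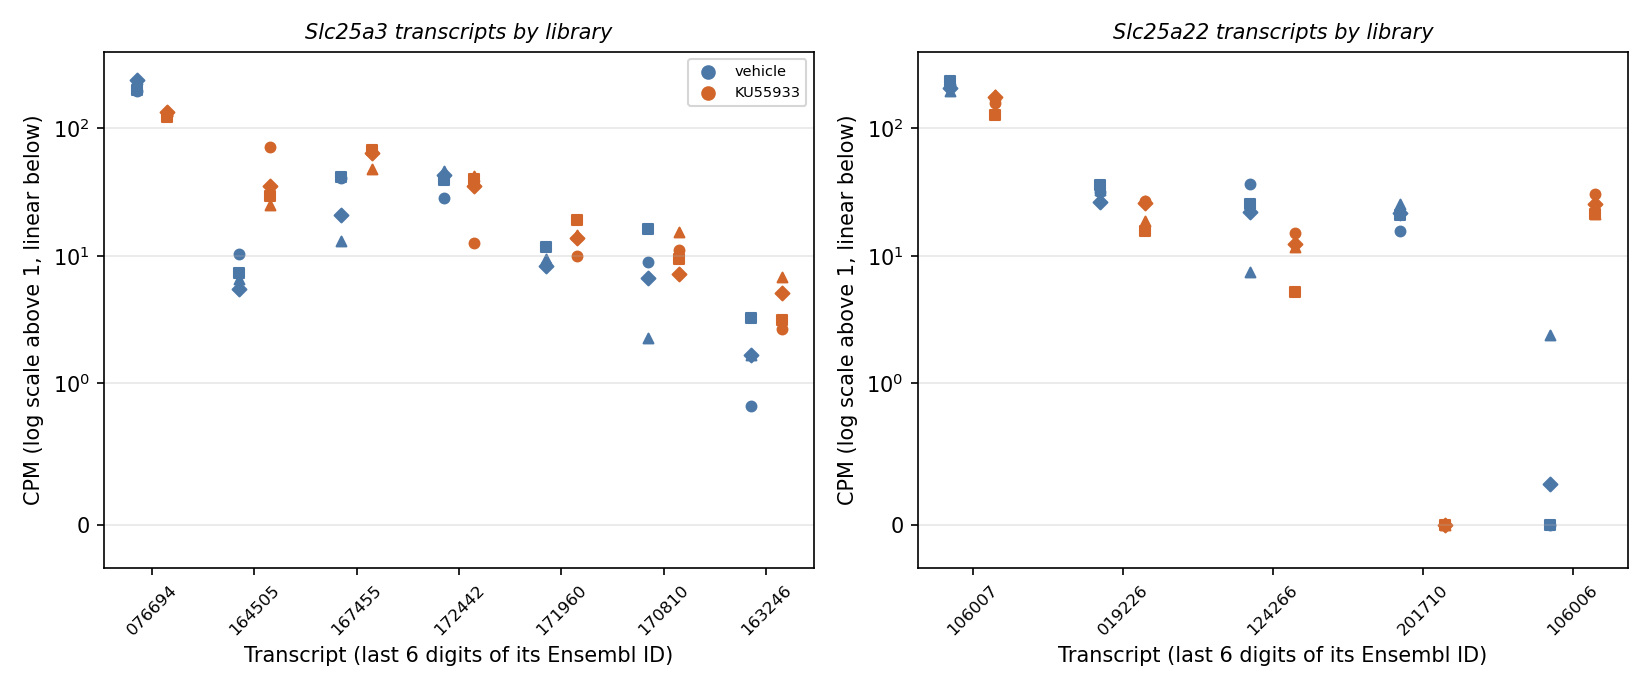
CPM of selected Slc25a3 (left) and Slc25a22 (right) transcripts in each library, vehicle in blue and KU55933 in orange, on an axis that is logarithmic above 1 and linear below. In Slc25a3 the KU55933 points lie lower for ENSMUST00000076694 and higher for ENSMUST00000164505, and in Slc25a22 they lie lower for ENSMUST00000201710 and higher for ENSMUST00000106006.

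Of the other called transcripts, the main protein-coding forms of Slc25a10, Slc25a39 and Slc25a1 fell as their genes did. ENSMUST00000026899 of Slc25a10 had 10.9 ± 0.68 and 5.30 ± 0.654 CPM (log2 change -1.04 ± 0.14, adjusted p = 0.0057), and ENSMUST00000018821 of Slc25a39 had 44.4 ± 1.72 and 31.6 ± 4.41 CPM (-0.49 ± 0.11, adjusted p = 0.0366). ENSMUST00000003622 of Slc25a1 fell from 23.9 ± 1.58 to 15.2 ± 1.45 CPM (-0.66 ± 0.11, adjusted p = 0.00998), while its retained-intron transcript ENSMUST00000129270 rose from 2.84 ± 1.01 to 6.96 ± 0.681 CPM (1.29 ± 0.28, adjusted p = 0.0318). With the offset these log2 changes were -0.17, 0.23, -0.03 and 1.34, none past the threshold, the last with an adjusted p of 0.0574. Smaller transcripts that fell included ENSMUST00000046038 of Slc25a28 (-1.28 ± 0.24, adjusted p = 0.0173) and ENSMUST00000132815 of Slc25a51 (-3.32 ± 0.81, adjusted p = 0.047), with adjusted p of 0.312 and 0.105 under the offset. The Slc25a51 and Slc25a39 transcripts and the Slc25a1 retained-intron form missed the threshold in 6 or more of the 8 fits that each left out 1 library (adjusted p up to 0.147). The Slc25a28 transcript missed it without vehicle 3 or 4 (adjusted p up to 0.0581) and the Slc25a1 coding transcript without KU55933 2 (0.0562). ENSMUST00000034049 of Slc25a4, at 491 ± 30.1 and 420 ± 39.4 CPM, did not pass without the offset (adjusted p = 0.188) and was called lower with it, at -0.29 ± 0.06 and an adjusted p that rounds to 0.05.

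Genes that work alongside the carriers gave shares of the same order. Of 57 tested genes of carrier import, other inner membrane transport, outer membrane channels, the malate-aspartate and glycerol phosphate shuttles, mitochondrial biogenesis and the family members under other symbols, 4 rose (7.02%) and 9 fell (15.8%), against 6.92% and 14.6% of all genes. Esrra, a nuclear receptor of mitochondrial biogenesis, fell from 39.7 to 46.3 CPM in vehicle to 17.3 to 25.4 CPM in KU55933, a log2 change of -0.98 ± 0.13 (adjusted p = 0.000792 by edgeR). Timm13, a small TIM chaperone, had 37.8 to 42.8 and 14.7 to 26.5 CPM (-0.94 ± 0.16), the coactivator gene Ppargc1b 6.03 to 8.38 and 3.92 to 5.06 CPM (-0.78 ± 0.14), and the TOM pore gene Tomm40 47.6 to 54.7 and 25.4 to 40.3 CPM (-0.69 ± 0.13). The groups did not overlap in any of these, and their GC content was 57.6% to 60.8%. With the offset their log2 changes were -0.27, -0.34, -0.42 and 0.03, none past the threshold.

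The rises were smaller. Micu3, a brain regulator of the calcium uniporter, had 81.2 to 87.0 CPM in vehicle and 98.0 to 118 in KU55933 (log2 change 0.32 ± 0.08). Gabpa, a transcription factor of nuclear-encoded mitochondrial genes, had 29.6 to 36.4 and 37.8 to 41.4 CPM (0.32 ± 0.08), and the channel gene Vdac3 110 to 120 and 128 to 162 CPM (0.28 ± 0.09, adjusted p = 0.0407). The groups did not overlap in these 3 genes, their GC content was 39.1% to 45.6%, and with the offset their log2 changes were 0.05, 0.05 and 0.09, none past the threshold. Without vehicle 2, 3 or 4 the rises among the 57 genes numbered 2, 1 and 1. Without KU55933 1 and 2 together 0 passed, and these 3 had adjusted p of 0.0692 to 0.123. Tomm6, a small TOM subunit gene outside the naming rule, was the 1 related gene called with the offset, at 48.0 to 51.9 CPM in vehicle and 30.7 to 39.7 in KU55933 and a log2 change of -0.41 ± 0.07 (adjusted p = 0.0183).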

How the data were processed

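Polyadenylated hippocampal RNA of 4 KU55933 and 4 vehicle mice was sequenced from TruSeq Stranded mRNA libraries, per the labels' protocols, whose text gives RNA input amounts for other brain regions although all samples are labelled hippocampus. The table that the authors deposited gives, for 74764 transcripts, expected counts (estimated, as whole numbers). The submitters' processing notes name Salmon 1.4.0, FastQC 0.11.9, DESeq2 1.32.0 and build GRCm39. The sources used here give neither the rounding nor any filter.

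Counts were summed per gene, filtered with filterByExpr, scaled by TMM and tested with edgeR 4.0.16 (limma 3.58.1, R 4.3.3; robust quasi-likelihood fit), with the threshold at 0.05. The same was done per transcript. CPM are counts scaled to the TMM-adjusted library size. GC content and length came from GENCODE M21 transcripts, which matched 99.7% of transcripts and held 99.82% of counts, as means weighted by abundance. Counts per kilobase divide the counts of each transcript by its own length, and were then rescaled to the same sum in every library. The offset was a natural spline, fitted per library, on GC content (6 df) and length (5 df). Sequences were cut from GENCODE M21 transcripts by transcript ID. No GRCm39 coordinates are printed. The 12 transcripts with no gene symbol held 0.0381% of counts. No libraries were duplicates by a chi-square check within groups. The tests were tried on simulated counts.

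Alternatives were upper-quartile and RLE scaling, filters of 1 CPM in 4 libraries or none, a non-robust fit, a replicate block, DESeq2 1.42.0, limma-voom, an adjusted p of 0.1, GC offsets, each library left out, and KU55933 1 and 2 left out. Gene members and lists were chosen with earlier results of these data known. Named were all members called with or without the offset, and a fixed list of members, mainly of energy metabolism but also holding Slc25a46. Of the related genes called, the 4 with the smallest p in each direction were named. All called transcripts were named, with the main transcript of each called member. Slc25a24, Slc25a25, Slc25a26, Slc25a28, Slc25a37, Slc25a40 and Tomm6 fall outside that rule and were named after their values were seen. Some genes and sequences are not reported here, and they still count in every total. P-values measure the spread between these libraries. Tables used pandas 2.3.3 and NumPy 2.4.6 in Python 3.11.15, and plots matplotlib 3.10.9.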

Additional observations from a re-analysis of the deposited data

Results flagged for a closer look

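Among 84 values and groups of 4 libraries examined, 4 had a library far from the other 3, where chance flags about 1 in 20 groups. Slc25a29 stood at 9.67 CPM in KU55933 2, against 13 to 13.3 in the other KU55933 libraries. Slc25a46 stood at 91.8 CPM in vehicle 1, against 87.6 to 88.1 in the other vehicle libraries. Gabpa stood at 36.4 CPM in vehicle 1, against 29.6 to 30.2, and Vdac3 at 162 CPM in KU55933 1, against 128 to 132. Without the far library the log2 changes were -0.32 for Slc25a29, 0.23 for Slc25a46, 0.40 for Gabpa and 0.19 for Vdac3. All kept their direction, and Vdac3 then missed the threshold (adjusted p = 0.059).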

How the results depend on the processing

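The counts of carriers called, 2 higher and 6 lower, kept within 1.5 times under upper-quartile and RLE scaling, filters of 1 CPM in 4 libraries or none, a non-robust fit, DESeq2 and limma-voom. They did not under the GC offset or the GC and length offset, where 0 were higher and 0 lower, with a median log2 change of -0.11 and -0.10 against -0.07, and related genes numbered 0 higher and 1 lower against 4 and 9. Member transcripts with the GC and length offset were 1 higher and 3 lower, against 2 and 8. Without KU55933 1 and 2 together, 0 carriers were higher and 2 lower, and 0 related genes higher and 5 lower. With adjusted p under 0.1, 10 carriers were lower. Shares of all genes called are not given here for the alternative fits, apart from the GC and length offset with all libraries and no block. Leaving out each library in turn gave 0 to 3 carriers higher (0 when vehicle 2, vehicle 3, KU55933 1 or KU55933 2 was left out, 1 without vehicle 4) and 3 to 7 lower (3 without vehicle 2), a median of -0.10 to -0.04 (-0.10 without vehicle 1), 1 to 5 related genes higher and 6 to 12 lower. It gave 1 to 3 transcripts higher (1 when vehicle 2, vehicle 3, KU55933 1, 2 or 3 was left out) and 4 to 8 lower (4 without vehicle 3 or 4 or KU55933 2, 5 without vehicle 2). With the offset these were 0 carriers higher, 0 to 1 lower, a median of -0.12 to -0.08, and 0 related genes higher and 0 to 1 lower.

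Log2 changes turned under the GC offset and the GC and length offset in Slc25a1 (0.14 and 0.17), Slc25a13 (-0.03 in both), Slc25a23 (0.10 and 0.09), Slc25a27 (-0.10 in both), Slc25a29 (0.24 in both), Slc25a39 (0.09 and 0.11), Slc25a46 (-0.06 and -0.07), Slc25a51 (-0.13 and -0.14) and Tomm40 (0.00 and 0.03), and in the transcripts ENSMUST00000018821 of Slc25a39 (0.23) and ENSMUST00000021693 of Slc25a29 (0.40) under the latter. Without KU55933 1 and 2 together Slc25a5 was at 0.01, Slc25a13 and Slc25a27 at -0.00 and Slc25a51 at -0.05, and Slc25a27 was at -0.01 by limma-voom. Over all fits with 1 library left out, with and without the offset, the sign varied in Slc25a1 (-0.29 to 0.22), Slc25a5 (-0.17 to 0.03), Slc25a11 (-0.26 to 0.17), Slc25a12 (-0.17 to 0.02), Slc25a13 (-0.19 to 0.41), Slc25a23 (-0.20 to 0.12), Slc25a27 (-0.24 to 0.14), Slc25a29 (-0.45 to 0.32), Slc25a39 (-0.53 to 0.17), Slc25a46 (-0.12 to 0.26), Slc25a51 (-0.16 to 0.09), Micu3 (-0.02 to 0.35) and Tomm40 (-0.80 to 0.07). Without the offset it varied in Slc25a5, Slc25a11, Slc25a12 and Slc25a27. The cause of each of these shifts was not tested.

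The shared replicate numbers were not taken as pairs in the main fit. Same-numbered libraries had correlations of their deviations from the group means of 0.29, 0.08, 0.04 and 0.2. Differently numbered libraries were not compared in this way, so these values cannot show whether the samples were paired. With the replicate block 2 carriers were higher and 10 lower, 1 transcript was higher, and Slc25a27 was at -0.01. With the block and the GC and length offset 0 carriers were higher and 1 lower, the median was -0.12, and 0 related genes were higher and 2 lower. That fit with the replicate block turned Slc25a1 (0.17), Slc25a23 (0.09), Slc25a27 (-0.12), Slc25a29 (0.24), Slc25a39 (0.11), Slc25a46 (-0.07), Slc25a51 (-0.14) and Tomm40 (0.02). The floor of 3 counts covers counting error only, while the 95% intervals of log2 changes rest on edgeR's standard errors, which include the spread between libraries. At 53 to 153 counts per library Slc25a47 was the least deeply counted of the called carriers.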
